A study of Homo sapiens with 2 samples.

Results

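The genes described are the inhibitors of the cyclin-dependent kinases, CDKN1A, CDKN1B, CDKN1C, CDKN2A, CDKN2B, CDKN2C and CDKN2D, together with CDKN3 and MTAP. These 9 genes, of 19974 protein-coding RefSeq genes on chromosomes 1 to 22 and X, were listed by symbol, and all peaks within 20 kb of the span of each gene were taken. The windows held 29 of the 54389 Flag-ETV4 peaks. The peaks came from ChIP-seq of 1 anti-Flag immunoprecipitate with 1 input library as its control. Both libraries are labelled A549, an established human non-small cell lung cancer line, which carried an shRNA against ETV4 (A549-shETV4) and received Flag-tagged ETV4 by transfection, so the protein measured is the one expressed from the plasmid. There was no replicate and no sample without Flag-ETV4, so no SD, no test between conditions and no p-value is given. The peaks record occupancy and not expression, so markers of the cell type could not be examined.

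CDK inhibitors hold back the cell cycle by binding cyclin-dependent kinases or their cyclin complexes. The INK4 proteins, p15 (CDKN2B), p16 (CDKN2A), p18 (CDKN2C) and p19 (CDKN2D), bind CDK4 and CDK6 and keep RB active, whereas the CIP/KIP proteins, p21 (CDKN1A), p27 (CDKN1B) and p57 (CDKN1C), act on cyclin complexes of several kinases. CDKN3 is a phosphatase that removes an activating phosphate from CDK2. CDKN2A also encodes ARF, which binds the ubiquitin ligase MDM2, from a separate upstream promoter. CDKN2A and CDKN2B lie side by side at 9p21 next to MTAP, an enzyme of methionine salvage, and this segment is often lost in tumours. A549 is a line known to lack CDKN2A, CDKN2B and MTAP by homozygous deletion.

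The peak list went against that deletion. The 207 kb from the start of MTAP to the end of CDKN2B on chromosome 9 (hg38 positions 21802636 to 22009313) held 8 peaks, and all 8 had a fold enrichment over 10. No stretch between neighbouring peaks contained any of the 3 genes whole. The cells are therefore called by their label, and why the locus carries peaks in the cells labelled A549 was not tested.

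Promoter sequences are shown for the 4 start sites of the 9p21 genes, since they differ in occupancy, for CDKN1A, which holds the other CCGGAA match, and for CDKN3, whose start has the lowest fold of the members. Each is RefSeq sequence of GRCh38.p14 from 250 bases before to 50 bases after a transcription start, written 5′ to 3′ on the strand of the gene. The windows are chr9:21995275-21995574, chr9:21974808-21975107 and chr9:22009256-22009555 on the minus strand, and chr9:21802386-21802685, chr6:36678464-36678763 and chr14:54396757-54397056 on the plus strand. Capitals mark GGAA on either strand, the core that ETS factors such as ETV4 recognise.
CDKN2A outer start (ARF): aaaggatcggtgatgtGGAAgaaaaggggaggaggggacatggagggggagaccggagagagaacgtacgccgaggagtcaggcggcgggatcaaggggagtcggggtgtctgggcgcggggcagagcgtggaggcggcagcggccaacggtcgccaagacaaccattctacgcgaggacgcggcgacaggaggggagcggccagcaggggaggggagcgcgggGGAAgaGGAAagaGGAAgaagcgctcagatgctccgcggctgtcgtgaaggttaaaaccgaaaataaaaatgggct
CDKN2A inner start (p16-INK4A): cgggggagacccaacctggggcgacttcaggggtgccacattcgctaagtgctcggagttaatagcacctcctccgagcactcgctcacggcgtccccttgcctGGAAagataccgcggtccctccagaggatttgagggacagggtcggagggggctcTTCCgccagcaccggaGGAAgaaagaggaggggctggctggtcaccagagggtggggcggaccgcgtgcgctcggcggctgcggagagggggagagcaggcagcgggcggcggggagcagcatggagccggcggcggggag
CDKN2B: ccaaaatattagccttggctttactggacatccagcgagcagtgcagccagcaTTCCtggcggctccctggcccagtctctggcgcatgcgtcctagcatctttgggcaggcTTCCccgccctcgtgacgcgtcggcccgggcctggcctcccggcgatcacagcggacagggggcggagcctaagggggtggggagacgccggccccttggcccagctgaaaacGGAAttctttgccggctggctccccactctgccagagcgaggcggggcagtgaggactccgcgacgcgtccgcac
MTAP: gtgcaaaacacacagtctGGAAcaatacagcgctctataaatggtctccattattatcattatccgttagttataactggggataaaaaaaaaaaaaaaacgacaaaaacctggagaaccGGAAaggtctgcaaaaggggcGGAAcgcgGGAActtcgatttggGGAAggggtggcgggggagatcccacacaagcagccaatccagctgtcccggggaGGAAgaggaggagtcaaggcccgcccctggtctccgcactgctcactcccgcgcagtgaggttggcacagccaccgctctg
CDKN1A: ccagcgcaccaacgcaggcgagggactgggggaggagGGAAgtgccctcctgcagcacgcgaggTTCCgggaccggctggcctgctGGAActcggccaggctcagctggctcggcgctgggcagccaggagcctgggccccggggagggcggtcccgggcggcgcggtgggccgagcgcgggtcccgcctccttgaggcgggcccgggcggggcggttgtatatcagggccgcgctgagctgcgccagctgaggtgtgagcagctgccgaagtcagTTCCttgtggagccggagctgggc
CDKN3: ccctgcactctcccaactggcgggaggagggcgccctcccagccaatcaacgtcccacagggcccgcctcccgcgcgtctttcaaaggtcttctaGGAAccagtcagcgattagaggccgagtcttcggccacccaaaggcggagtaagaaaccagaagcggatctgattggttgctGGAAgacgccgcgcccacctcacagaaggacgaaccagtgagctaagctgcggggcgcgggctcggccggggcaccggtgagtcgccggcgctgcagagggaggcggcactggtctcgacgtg
The core alone is common, since 95.5% of 34961 RefSeq promoter windows of this length held GGAA on either strand. The longer match CCGGAA, searched on both strands and always containing a GGAA, was in 17.3% of the windows, in 30.5% of those that overlapped a peak and in 7.58% of the others. Among the 11 windows of the member genes it occurred once at CDKN1A, beginning 186 bases before the start, and once at MTAP, beginning 132 bases before it. CCGGAAGT, which contains CCGGAA, was in 4.14% of all windows and in 0 of the 11. Both CDKN2A windows held GGAA, 4 times at the ARF start and 3 times at the p16-INK4A start. The number of GGAA matches per member window ranged from 1 to 6, with a median of 3 over all windows.

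A peak lay within 20 kb of every one of the 9 genes. This was so for 86.3% of all protein-coding genes, so the count is close to the background. A peak with a fold enrichment over 10 lay within 20 kb of 8 of the 9, CDKN3 being the exception, against 72.5% of protein-coding genes. Transcription starts were taken from the RefSeq promoter table, which held 11 starts for 8 of the genes and none for CDKN1C. Each of the 8 had 1 or more starts with a peak no farther than 1 kb, for CDKN2A the ARF start, against 64.5% of the protein-coding genes in that table, and 7 of the 8 had one with a fold enrichment over 10, against 47.1%. The members were chosen with results of this list known, and 3 of them share 1 locus, so these shares are descriptions.

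The 29 peaks had a median fold enrichment of 13.6, from 4.21 to 55.2, against 9.63 over all peaks. Their median width was 871 bp, from 272 to 3360 bp, against 519 bp. The depth behind each peak is its summit pileup, the number of fragments over the summit, which was solved from the deposited fold and p-value. Intervals beside pileups are exact Poisson intervals at 95% and cover counting error only. Its median was 41 fragments, from 14 to 126, against 26 over all peaks. The strongest peak of a gene had a median fold of 23.8 over the 9 genes and of 25.2 over protein-coding genes with a peak within 20 kb.

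**Figure D1:**
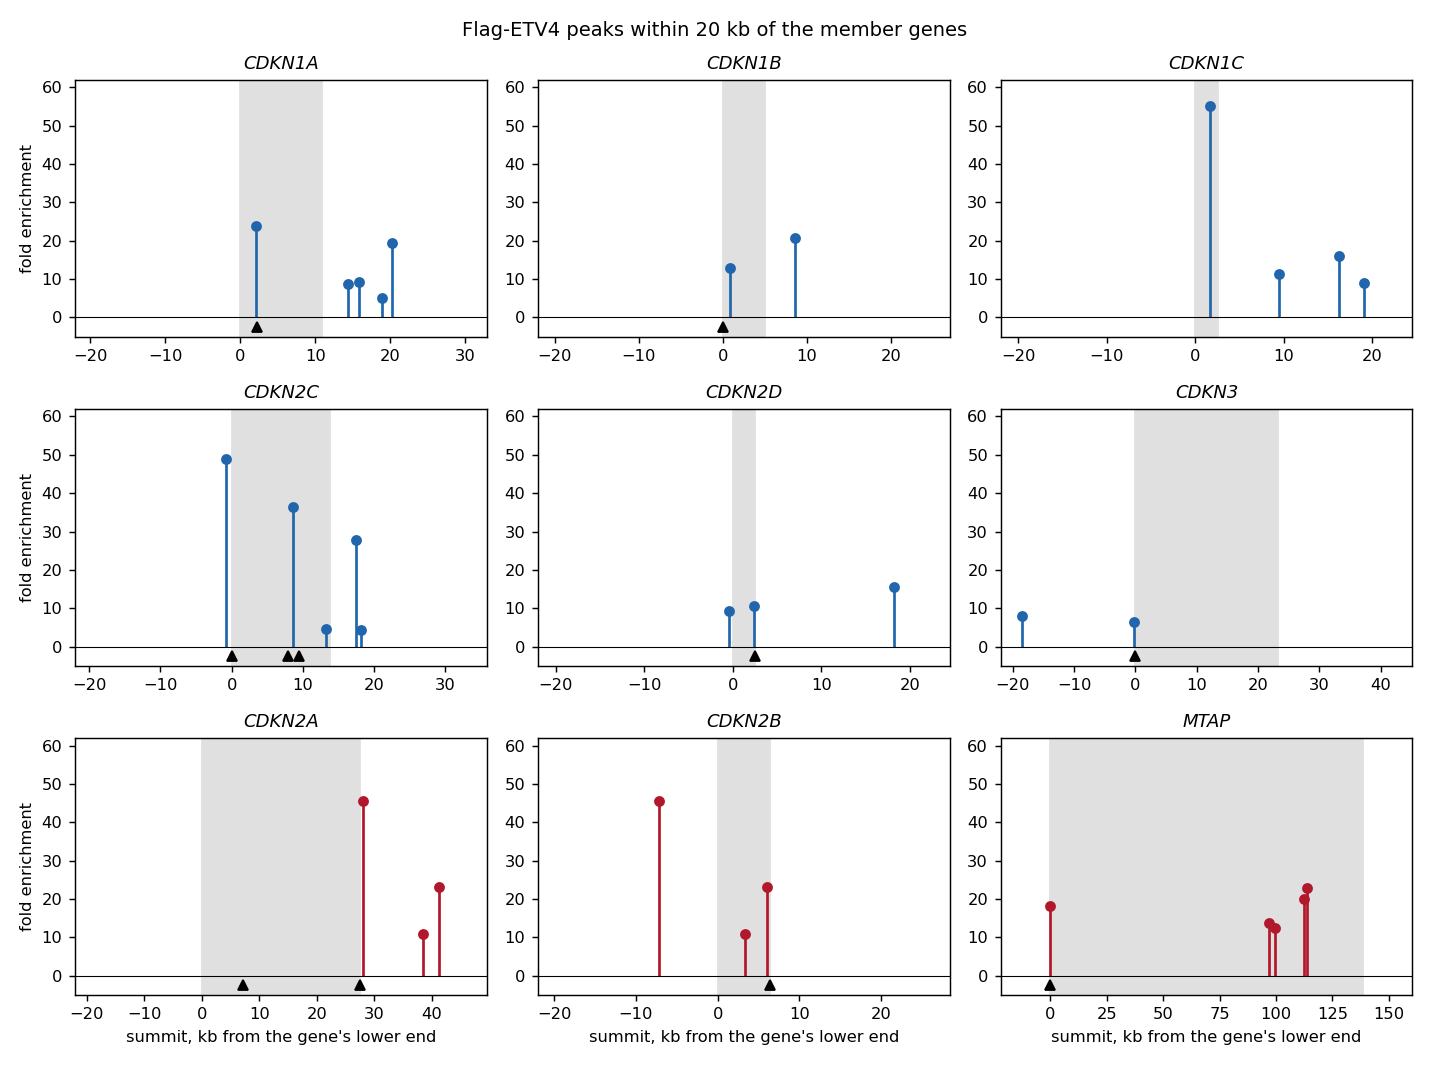
Fold enrichment of each Flag-ETV4 peak within 20 kb of the 9 genes, against the distance of its summit from the lower-coordinate end of the gene in kb. Grey bands are gene spans, black triangles transcription starts (none shown for CDKN1C), blue the 6 inhibitors outside 9p21 and red the 9p21 genes, where the peak beside the outer CDKN2A start reaches 45.6 and none lies at the inner start.

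CDKN2A, gene ID 1029, spans 21967752 to 21995324 on chromosome 9 and is transcribed from the minus strand. Of its 2 starts, the outer one, at 21995324, serves the ARF transcript, and the inner one, at 21974857, serves p16-INK4A. A peak from 21993310 to 21996273 covered the ARF start. Its width was 2964 bp, its fold enrichment 45.6 with a −log10 q of 174, and its summit lay at 21995781, 457 bp before the start. The summit pileup was 122 fragments (interval 101 to 146) over a control level of 1.70. In the ranking by fold it stood at the 92.7th percentile of the list. The interval also covered the start of CDKN2B-AS1, the antisense long non-coding RNA at the locus, which begins 533 bp from the ARF start on the other strand. It covered the start of a further long non-coding RNA too, on the strand of CDKN2A and 1296 bp from the ARF start. The peak therefore cannot be given to any single one of these genes. No peak covered the p16-INK4A start, whose nearest peak edge was 18.5 kb away. Enrichment below the caller's threshold would not be listed. The 2 promoters of CDKN2A therefore differed in the list, with a peak at ARF and none at p16-INK4A.

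CDKN2B, gene ID 1030, spans 22002903 to 22009313 and encodes p15, the INK4 protein known to be induced by TGF-β. Its start at 22009305 was covered by a peak from 22008559 to 22009429, of 871 bp, with a fold enrichment of 23.2 and a summit at 22008926, 379 bp inside the gene. There 56 fragments were piled up (interval 42.3 to 72.7) over a control level of 1.46. Within CDKN2B a second peak, from 22004936 to 22006369, was 1434 bp wide with its summit at 22006213 and a fold of 10.8. Both lay within 20 kb of CDKN2A too, so the windows of the 2 genes held the same 3 peaks. The pileup intervals separate the ARF peak from the CDKN2B start peak, the former being higher.

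MTAP, gene ID 4507, spans 21802636 to 21941115 and had 5 peaks, all overlapping the gene. The peak at its start, from 21801957 to 21803538, was 1582 bp wide, with a fold enrichment of 18.2 and a summit at 21802678, 42 bp inside the gene. Its pileup was 47 fragments (interval 34.5 to 62.5) over a control level of 1.64. The other 4 lay 96855 to 113542 bp from the start, in 2 pairs. The first pair, from 21899248 to 21899712 with its summit at 21899491 and from 21902086 to 21902472 with its summit at 21902274, had folds of 13.6 and 12.3. The second pair, from 21914780 to 21915298 with its summit at 21915028 and from 21915928 to 21916354 with its summit at 21916178, had folds of 19.998 and 22.9. These 4 peaks were 465, 387, 519 and 427 bp wide, all narrower than the peak at the start. The strongest of the 5 by fold was thus inside the gene and not at its start, although the intervals of the pileups, 38.8 to 68.2 and 34.5 to 62.5, overlap. By pileup the highest was the peak with its summit at 21915028, with 73 fragments (57.2 to 91.8) over a control level of 2.70. Its interval overlaps both of the others.

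The longest stretch without a peak that touched the 9p21 genes was 95.7 kb, from 21803539 to 21899247, and lay inside MTAP. It ranked 7601st by length among the 54366 stretches between neighbouring peaks of a chromosome, and 322nd of 2324 on chromosome 9. The stretch before the ARF peak, from 21916355 to 21993309, was 77.0 kb long. It took in the end of MTAP, the p16-INK4A start and most of CDKN2A. Neither stretch held a whole protein-coding gene. Among the other inhibitors, the longest stretch touching CDKN1A was 131 kb and that touching CDKN3 90.4 kb. It was 52.9 kb at CDKN1C, 7.57 kb at CDKN2C, 4.73 kb at CDKN1B and 1.68 kb at CDKN2D. The 9p21 genes were thus within the range of the other inhibitors by this measure.

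**Figure D2:**
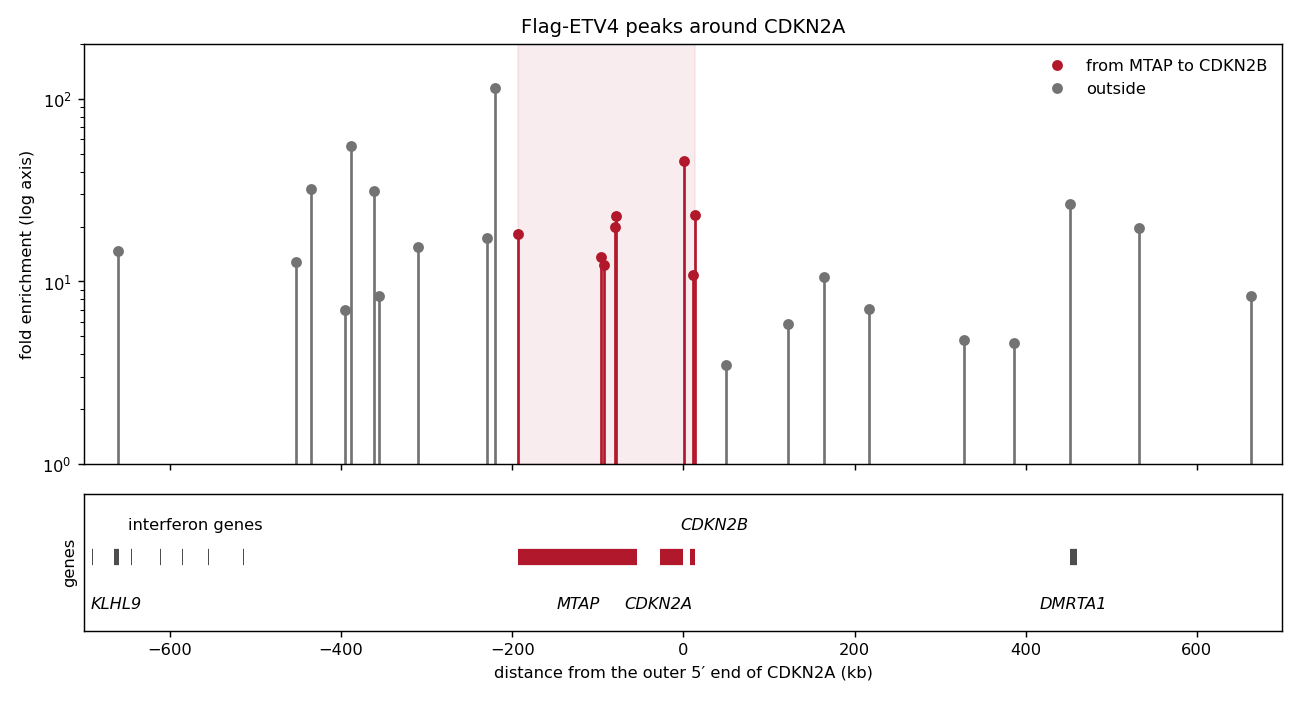
Fold enrichment (log axis) of all peaks around the outer 5′ end of CDKN2A, against distance in kb, with the protein-coding genes drawn below. The shaded segment from MTAP to CDKN2B holds 8 peaks (red), with folds from 10.8 to 45.6, and peaks continue on both sides of it (grey).

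The input was followed through the control level, the scaled number of control fragments that the peak caller set against each summit. The level has a floor of 1.28, the genome-wide average, and rises above it only where control fragments lie near the summit. It was above the floor at 6 of the 8 peaks at 9p21, against 71.0% of all peaks. The median control level of the 8 peaks was 1.55, from 1.28 to 2.70, against 1.67 over all peaks. At the summits 22006213 in CDKN2B and 21915028 in MTAP, the level of 2.70 was 8 times the step of 0.338. That corresponds to 8 control fragments over the summit if the input was scaled linearly. The 21 peaks of the other 6 inhibitors had a median control level of 2.12, from 1.28 to 3.38, and 20 of them were above the floor. Within 1 Mb of the 9p21 genes the median control level of 30 peaks was 1.66, and 1.67 over chromosome 9. A level of 1.28 is the lowest that can be listed, so lower input could not be seen.

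**Figure D3:**
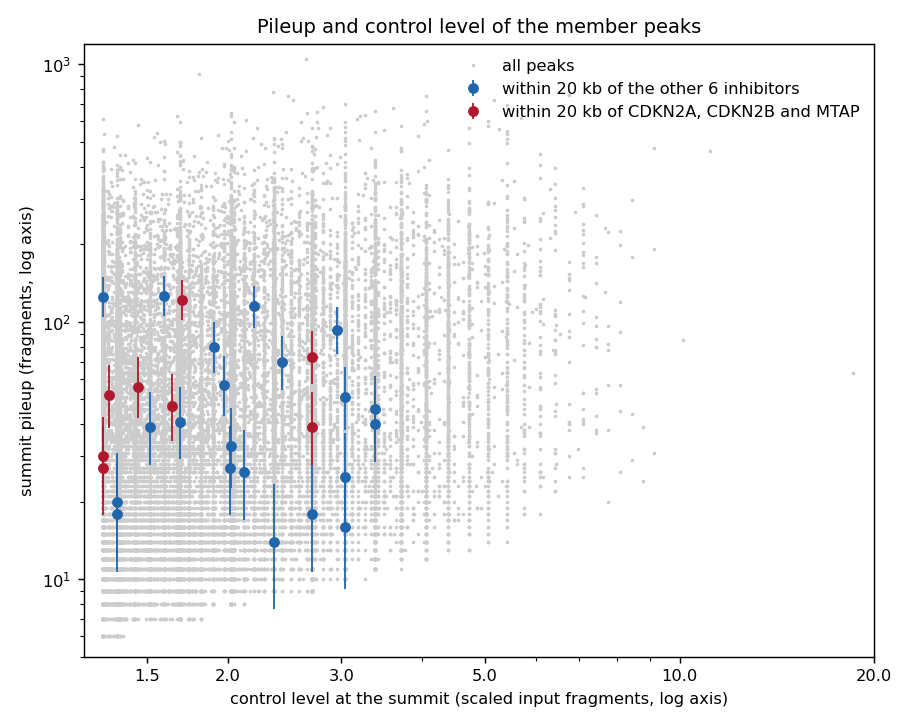
Summit pileup in fragments against the control level at the summit (both log axes) for the peaks of the list (grey), the 21 peaks within 20 kb of the 6 inhibitors outside 9p21 (blue) and the 8 peaks at 9p21 (red); bars are exact Poisson 95% confidence intervals. The 9p21 peaks lie among the others on both axes, with control levels from 1.28 to 2.70; 2 peaks of the list with a control level over 20 are beyond the axis.

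Peak density was compared with equal flanks on both sides of the gene spans. The windows differed in content, since gene bodies made up 172 of 247 kb at 9p21 with flanks of 20 kb, against 58.1 of 298 kb around the other 6 inhibitors. Within 20 kb, the 9p21 genes had 3.24 peaks per 100 kb (exact Poisson 95% interval 1.40 to 6.39) and the other 6 inhibitors 7.05 (4.36 to 10.8), and the intervals overlapped. Within 100 kb the values were 2.70 (1.35 to 4.84) and 3.66 (2.68 to 4.88). Within 500 kb they were 2.07 (1.34 to 3.06) and 3.78 (3.31 to 4.30), and the intervals no longer overlapped. The interval of the 6 pooled inhibitors covers counting error only and not the spread between their loci. Single inhibitors ranged from 1.78 (1.05 to 2.81) around CDKN2C to 5.34 (4.01 to 6.97) around CDKN1A at 500 kb. In windows of 1000 and 2000 kb, added after the data were seen, the 9p21 density of 1.36 (0.917 to 1.94) and 1.38 (1.05 to 1.78) was below that of each single inhibitor. The lowest of these was CDKN2C, with 1.89 (1.34 to 2.59) and 1.49 (1.14 to 1.92), whose intervals overlapped those of 9p21. The intervals of CDKN3, with 2.32 (1.71 to 3.09) and 1.81 (1.42 to 2.28), overlapped those of 9p21 too. From its first to its last peak, chromosome 9 had 1.68 peaks per 100 kb. Stretches where no peak could be called were not taken out of that length. By fold, the 9p21 peaks had a median of 19.1 and the other members' peaks 11.2, with 8 of 8 and 12 of 21 over 10, against 48.5% of all peaks.

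**Figure D4:**
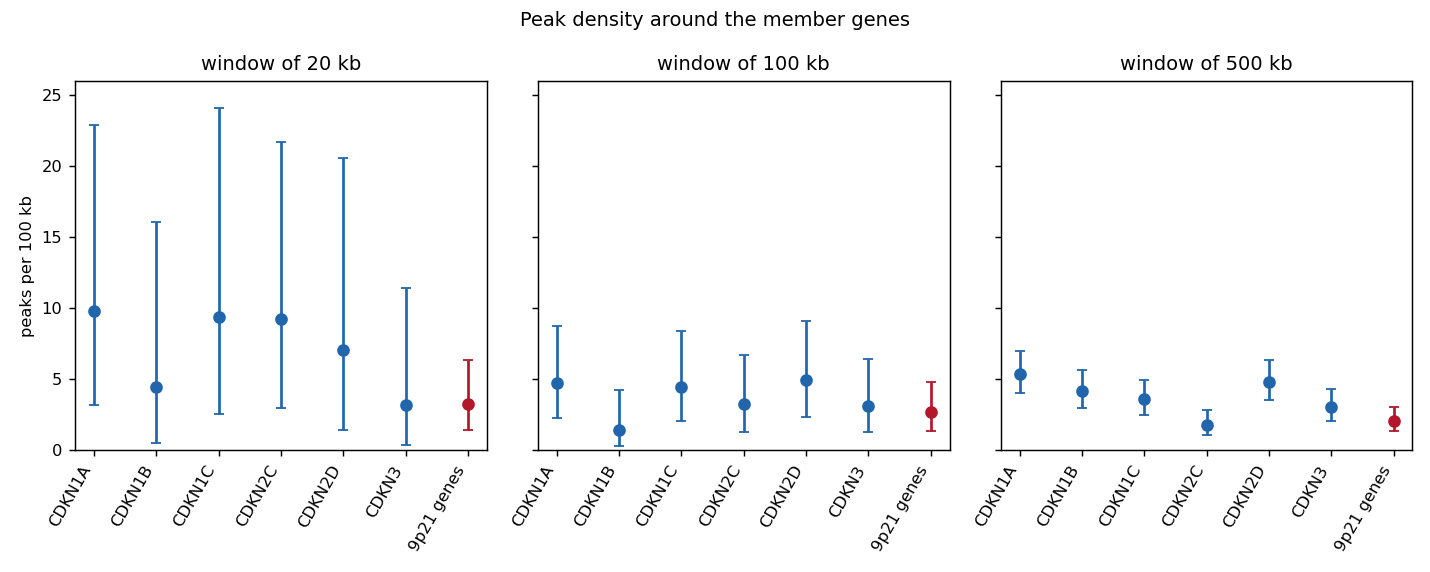
Peaks per 100 kb around each of the 6 inhibitors outside 9p21 (blue) and around the 9p21 genes together (red), within 20, 100 and 500 kb of the gene spans; bars are exact Poisson 95% confidence intervals, which cover counting error only. At 500 kb the 9p21 value of 2.07 lies between CDKN2C (1.78) and the other inhibitors.

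Among the CIP/KIP genes, CDKN1A on chromosome 6, from 36676463 to 36687332, encodes p21, which arrests the cycle after DNA damage. Its start at 36678714 was covered by a peak from 36678358 to 36680776, 2419 bp wide, with a fold of 23.8. The summit at 36678604 lay 110 bp before the start, with a pileup of 93 fragments (interval 75.1 to 114) over a control level of 2.96. The start of DINOL, a non-coding RNA named here after its values were seen, was 155 bp away and covered by the same peak. A group of 4 peaks lay beyond the 3′ end, towards RAB44. Their summits at 36690822, 36692313, 36695313 and 36696675 were 3490 to 9343 bp from the gene, with widths of 712, 459, 372 and 590 bp. Their folds were 8.64, 9.28, 5.13 and 19.5. The last of these was close to the start peak in fold, but with 57 fragments (43.2 to 73.9) its pileup was lower.

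CDKN1B, on chromosome 12 from 12717368 to 12722369, encodes p27, whose level falls as cells enter the cycle. The peak at its start, from 12715553 to 12718912, was the widest of the 29 at 3360 bp and had a fold of 12.9. Its summit at 12718258 was 890 bp inside the gene, with 51 fragments over a control level of 3.04. The interval also took in the outer end of GPR19, the neighbouring gene. A stronger peak, from 12723642 to 12726334 with its summit at 12726008, was 2693 bp wide with a fold of 20.7 and 70 fragments. Its summit lay 3639 bp beyond CDKN1B, and the interval covered the start of APOLD1. The pileup intervals of the 2 peaks, 38.0 to 67.1 and 54.6 to 88.4, overlapped.

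CDKN1C, on chromosome 11 from 2883218 to 2885775, is an imprinted gene that encodes p57. It held the highest fold of all 29 peaks, 55.2, at the 95.1th percentile of the list. That peak, from 2884100 to 2885897, was 1798 bp wide and extended past the upper end of the gene, with its summit at 2884941 inside it. The pileup of 125 fragments (interval 104 to 149) stood against a control level at the floor, 1.28, so the fold rests on the genome-wide average and not on local control fragments. The 3 other peaks lay towards SLC67A1, with folds of 11.2, 15.9 and 8.94 at summits 2892679, 2899503 and 2902304. They were 678, 1147 and 590 bp wide, and the last covered starts of SLC67A1.

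Among the INK4 genes outside 9p21, CDKN2C on chromosome 1, from 50960745 to 50974634, encodes p18 and had 5 peaks. The strongest, from 50959568 to 50960602, was 1035 bp wide with a fold of 49.0 and 126 fragments (interval 105 to 150). Its summit at 50959980 lay 765 bp before the outer start of CDKN2C, and the interval ended 143 bp short of that start. It covered the start of FAF1, which is transcribed in the opposite direction 478 bp away. A peak from 50968175 to 50970100, 1926 bp wide with its summit at 50969365, covered the second start, at 50968706, and ended 145 bp before the third, at 50970245. Its fold was 36.3 with 115 fragments (94.9 to 138), and the 2 pileups could not be told apart. A peak of 1494 bp beyond the gene, with its summit at 50978216, had a fold of 27.9. The remaining 2, at summits 50974058 and 50978963, were 272 and 285 bp wide with folds of 4.46 and 4.21, the lowest of the 29.

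CDKN2D, on chromosome 19 from 10566460 to 10568979, encodes p19. A peak from 10568175 to 10569339, of 1165 bp, covered its start and had its summit at 10568881, 98 bp inside the gene. The fold was 10.7 and the pileup 46 fragments (interval 33.7 to 61.4) over a control level of 3.38. A peak at the 3′ end, from 10565557 to 10566493 with its summit at 10566075 and a width of 937 bp, had a fold of 9.37 and covered the start of KRI1. The third, of 458 bp with its summit at 10584643, lay inside AP1M2 with a fold of 15.6. The 3 pileups, from 40 to 46 fragments, had overlapping intervals.

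CDKN3 lies on chromosome 14 from 54397007 to 54420218, and its strongest peak was the weakest such peak among the 9. Its start was covered by a peak from 54396430 to 54397850, 1421 bp wide, with a fold of 6.44 and its summit at 54396707, 300 bp before the start. The pileup of 25 fragments (interval 16.2 to 36.9) stood over a control level of 3.04. The other peak, of 628 bp with its summit at 54378428, had a fold of 8.08 and 18 fragments, 18579 bp before the start. The strongest fold within 20 kb put CDKN3 at the 23.6th percentile of protein-coding genes, against the 87.7th for CDKN1C.

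The summit pileups at the start sites differed among the members beyond Poisson counting error, which takes fragments as independent. Pileups are not set against the control level, which ran from 1.46 at CDKN2B to 3.38 at CDKN2D. The pileup intervals of the peaks beside the outer CDKN2C start and at the ARF start, with lower bounds of 105 and 101 fragments, did not overlap those at CDKN1B, CDKN2B, CDKN2D, CDKN3 and MTAP. Nor did the interval at the CDKN1A start, 75.1 to 114 fragments, which overlapped those at the outer CDKN2C start and the ARF start. CDKN2B, MTAP, CDKN1B and CDKN2D, with 56, 47, 51 and 46 fragments, had overlapping intervals and cannot be ordered. CDKN3, with 25 fragments, overlapped CDKN2D and MTAP only at the edges of the intervals. By family, peaks that covered a start of an INK4 protein had folds of 23.2 at CDKN2B, 36.3 at CDKN2C and 10.7 at CDKN2D, and no peak covered the p16-INK4A start. Those at the CIP/KIP genes CDKN1A and CDKN1B were 23.8 and 12.9, within the INK4 range. CDKN1C has no start in the promoter table and is left out of this comparison. Its strongest peak, with a fold of 55.2, was above that range.

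The partners and targets of the inhibitors were counted in the same way over a list of 15 genes. A peak lay within 20 kb of 14 of them, RBL1 being the exception, and 11 had one with a fold over 10. The corresponding background shares are the 86.3% and 72.5% given above. Of the 11 with a start in the promoter table, 9 had a peak within 1 kb of it, against the 64.5% given above, and 5 had one with a fold over 10, close to the 47.1%. The exceptions were RBL1 and RB1, whose only listed start is an inner one, while a peak with a fold of 25.6 spanned the outer end of RB1, the pocket protein that the INK4 proteins keep active. Among the kinases, CDK4 had 14 peaks within 20 kb, but the peak at its own start had a fold of 4.88. The strongest, with a fold of 76.7, had its summit 11529 bp outside the gene. CDK6 had 7 peaks, the strongest, 35.4, at its start. CDK2 had 4 peaks with a highest fold of 10.7, at a summit 2841 bp outside the gene. Of the D-type cyclins that activate CDK4 and CDK6, CCND1 had a highest fold of 125, at a summit 18916 bp outside the gene. The highest of CCND2, 33.6, had its summit 15889 bp outside the gene, and that of CCND3, 39.8, inside CCND3. The E-type cyclins had highest folds of 7.72 (CCNE1) and 44.8 (CCNE2), at summits inside the genes. CCNA2 had 6.14 at a summit 15116 bp outside the gene, and 3.24 near its start. MDM2, the ligase that ARF holds back, had a highest fold of 19.7, at its start. SKP2 and CKS1B, which mark p27 for degradation, had 9.55 and 40.3, and RBL2 had 15.2. The CKS1B summit lay 3635 bp outside the gene, and the peak nearest its start had a fold of 19.5.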

How the data were processed

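ChIP-seq of 1 anti-Flag immunoprecipitate was analysed as the peak list the authors deposited in narrowPeak layout. Per the labels, the submitters' processing notes name Bowtie2 2.4.1, SAMtools, MACS2 2.2.7.1 and deepTools 3.5.0 and the hg38 build. Parameters and the handling of duplicate reads are not given in the sources used here. The deposited file gives an interval and a summit for each peak, a ratio of immunoprecipitate to control (the fold enrichment), and the −log10 p and −log10 q. Peaks were called on the single library, and the input's own signal was not used here. Positions are 1-based.

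Gene spans came from a RefSeq table of GRCh38.p14 and transcription starts and promoter sequences from a RefSeq promoter table of the same assembly, which matched 8 of the 9 genes. Exons and introns were not used here. The summit pileup and control level were solved from the fold, taken as pileup plus 1 over control plus 1, and the Poisson p-value. Of all pileups, 100% came within 0.01 of a whole number. The floor of the control level, 1.28, was met within 0.003 by 29.0% of the peaks, and 50.4% of the levels between the floor and 10 were whole multiples of 0.338 within 0.0005. The solution and the window search were tested on simulated data. Confidence intervals are exact Poisson at 95% and cover counting error only. PCR fragments without molecular identifiers are not independent molecules.

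The 9 genes, the 15 partners reported and the choice of sequences were made with earlier results of these data known. The text names all 9 genes, protein-coding neighbours within 20 kb, non-coding genes named for a member and the listed partners. ATG4D near CDKN2D, CNIH1 near CDKN3 and CDKN2A-AS1 near CDKN2A are named only here. The partner list as first drawn up held 1 more gene, which is not reported here. Alternatives covered window size, thresholds on fold and q, and summits. Scripts ran in Python 3.11.15 with scipy 1.17.1, pandas 2.3.3, numpy 2.4.6 and matplotlib 3.10.9.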

Additional observations from a re-analysis of the deposited data

How the results depend on the processing

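Of 37 alternative values of the main results, 30 stayed within 1.5 times the value given or, for densities, within its Poisson interval. A window of 100 kb in place of 20 kb raised the number of peaks around the 9 genes from 29 to 57. The density around the 6 inhibitors outside 9p21 fell from 7.05 to 3.66 peaks per 100 kb within 100 kb, 3.78 within 500 kb, 3.53 within 1000 kb and 2.87 within 2000 kb, and that around the 9p21 genes from 3.24 to 1.36 within 1000 kb and 1.38 within 2000 kb. Windows of 1000 and 2000 kb were chosen after seeing the data. All 8 peaks from MTAP to CDKN2B remained under thresholds of 5 and 10 on the fold and of 5 on the −log10 q, and the longest stretch without a peak stayed at 95709 bp, or 96812 bp between summits. Those thresholds could not remove any of the 8, whose lowest fold was 10.8 and lowest −log10 q 24.5, so they do not test the stretch. They are among the 37 alternatives. For single genes, 40 of 54 alternative peak counts stayed within 1.5 times. With a fold over 10 required, CDKN3 kept 0 peaks. With 1 library there is no measure of biological spread, and a peak with 14 fragments has an interval from 7.65 to 23.5. No paired analysis was possible because there is 1 immunoprecipitate without replicates.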

Other observations

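The longest stretches without a peak within 1 Mb of the 9p21 genes lay outside the segment from MTAP to CDKN2B. One of 543 kb, from 22658621 to 23201240 on chromosome 9, began 649 kb beyond CDKN2B, overlapped no protein-coding gene and ranked 19th among the stretches of the chromosome. Another of 239 kb, from 20735755 to 20974681, overlapped FOCAD. Over the type I interferon genes, which encode secreted antiviral proteins, one of 179 kb, from 20974970 to 21153856, overlapped FOCAD, HACD4, IFNB1 and IFNW1. Farther along, stretches of 207 kb and 150 kb overlapped 6 and 8 protein-coding genes, KLHL9 among the latter, and met at a peak that covers an end of KLHL9.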
